A study of Homo sapiens with 9 samples.

Results

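A head-to-head, or bidirectional, promoter is the stretch of DNA between 2 genes that start close together on opposite strands and are transcribed away from each other. Of 19111 protein-coding genes on chromosomes 1 to 22, each placed by the transcription start site (TSS) of its canonical GENCODE transcript, 1842 (9.64%) lay in such an arrangement, defined as a minus-strand TSS 0 to 1000 bp upstream of a plus-strand TSS. They formed 957 pairs out of 18226 promoter spans in all. A span ran from 500 bp before the first TSS of a pair to 500 bp after the second, or 500 bp to either side of a single TSS. The comparison set was 16077 one-gene promoters, whose TSS had no other protein-coding TSS within 2000 bp, and the remaining 1192 spans were in neither set. A gene could face more than 1 partner, so 71 genes were in 2 or more pairs, and 76 pairs held a readthrough gene, an annotated fusion of neighbouring genes.

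Chromatin accessibility was surveyed by ATAC-seq, in which a transposase inserts adapters into open DNA, in MDA-MB-231, a triple-negative breast cancer cell line. Cells received a lentiviral shRNA by transduction for 24 h and puromycin selection (2 µg/ml) for 72 h: control shRNA (shCtrl, 2 libraries), shEZH2 (2 libraries), shE2F1 (2 libraries) or shSUZ12 (1 library). A DMSO library, whose treatment label reads WT, and a library of cells given GSK126, an inhibitor of the EZH2 methyltransferase, completed the 9, with 1 library each. EZH2 and SUZ12 are subunits of Polycomb repressive complex 2, which methylates histone H3 at lysine 27, and E2F1 is a transcription factor of the cell cycle. The labels do not say whether replicates came from separate cultures, so the p-values below measure the spread between these libraries, which may be technical.

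Each library was deposited as a list of peaks with a signal value for each. From the layout and range of the values, it was read here as fold enrichment over background. The lists held 58626 (shEZH2 replicate 2) to 85812 peaks (shE2F1 replicate 2). No read totals come with the lists, so depth is unknown, and the length of a list moves with the values given below. Fold enrichment was also expressed as its percentile among all peaks of the same list, where 100 is the strongest peak. The percentile still depends on which peaks a list holds, so a difference in percentile between libraries is not corrected for list length. Of the mesenchymal markers of the line, VIM, ZEB1, CD44, AXL and CAV1 had a peak within 500 bp of their TSS in all 9 libraries and SPARC in 0. Several luminal breast markers also had one, so a peak at this level did not separate the marker lists: KRT8, KRT18 and ERBB3 had a peak in 9 libraries, ESR1 in 8, FOXA1 in 7, CDH1 in 6, PGR in 4 and GATA3 in 0.

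As background, bidirectional promoters are typically CpG islands that lack a TATA box, and their genes often serve functions that most cells need, such as DNA repair, mitochondrial function, RNA processing and the cell cycle. The histone genes that are expressed in S phase are also often arranged head to head, as are the type IV collagen genes of the basement membrane. ETS factors, NRF1, NF-Y and YY1 are known to bind at many promoters of this kind. The 2 core promoters of a pair face outward, and the DNA between them can serve as a common regulatory region.

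The TSSs of a pair were 233 bp apart at the median, with an interquartile range of 121 to 401 bp and a shortest distance of 11 bp. The intervals between the TSSs of 8 pairs are printed to show what such a promoter looks like. They are the pairs with the highest mean percentile of fold enrichment, a measure explained above, in each of 7 gene groups among the named pairs whose interval was at most 300 bases, and the next highest pair of any group. Each is the plus strand of GRCh38, from the base after the minus-strand TSS to the base before the plus-strand TSS, and capitals mark exact matches, on either strand, to motif letters: CCAATCA as well as CCAATGA and also CCAATCG besides CCAATGG (the NF-Y motif), GGGGCGGGG (the SP1 motif), TTTCCCGC as well as TTTCGCGC and also TTTGCCGC besides TTTGGCGC (the E2F motif), CCGGAAGT (the ETS motif), GCATGCGC (the NRF1 motif), AAGATGGCG (the YY1 motif), TGACGTCA (the CRE motif), TGACTCA (the AP-1 motif) and ACTACAATT (the ZNF143 motif).
EIF2B1/GTF2H3 (chr12:123633687-123633828): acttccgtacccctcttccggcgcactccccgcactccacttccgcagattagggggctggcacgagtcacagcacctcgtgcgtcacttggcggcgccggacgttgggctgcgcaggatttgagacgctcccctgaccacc
XPC/LSM3 (chr3:14178602-14178816): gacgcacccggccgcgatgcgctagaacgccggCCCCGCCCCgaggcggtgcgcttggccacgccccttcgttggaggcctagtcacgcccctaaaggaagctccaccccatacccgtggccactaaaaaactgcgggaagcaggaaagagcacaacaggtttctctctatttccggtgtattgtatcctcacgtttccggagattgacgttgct
MRE11/ANKRD49 (chr11:94493845-94493983): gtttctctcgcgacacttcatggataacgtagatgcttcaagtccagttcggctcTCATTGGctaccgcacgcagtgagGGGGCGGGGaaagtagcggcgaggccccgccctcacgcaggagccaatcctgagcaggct
MMUT/CENPQ (chr6:49463254-49463369): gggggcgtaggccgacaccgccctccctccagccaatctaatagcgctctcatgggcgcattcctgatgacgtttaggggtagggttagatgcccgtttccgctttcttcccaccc
ATP5MK/PDCD11 (chr10:103396476-103396625): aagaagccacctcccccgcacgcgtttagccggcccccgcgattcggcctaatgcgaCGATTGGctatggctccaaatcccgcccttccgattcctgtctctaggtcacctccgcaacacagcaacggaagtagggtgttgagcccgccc
RARS2/ORC3 (chr6:87589988-87590134): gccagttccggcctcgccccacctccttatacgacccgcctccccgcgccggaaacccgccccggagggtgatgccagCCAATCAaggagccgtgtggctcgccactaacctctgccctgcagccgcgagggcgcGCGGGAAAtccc
H2BC11/H2AC11 (chr6:27132796-27133042): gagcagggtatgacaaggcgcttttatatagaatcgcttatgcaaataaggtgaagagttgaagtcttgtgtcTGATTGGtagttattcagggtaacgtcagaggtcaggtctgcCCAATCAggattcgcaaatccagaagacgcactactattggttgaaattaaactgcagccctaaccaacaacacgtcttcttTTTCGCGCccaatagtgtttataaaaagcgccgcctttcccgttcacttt
COL4A1/COL4A2 (chr13:110307158-110307283): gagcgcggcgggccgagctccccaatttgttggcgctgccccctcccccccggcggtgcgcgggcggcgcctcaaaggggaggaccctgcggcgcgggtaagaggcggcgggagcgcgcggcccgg

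The 8 intervals ranged in GC content from 43.7% (H2BC11/H2AC11, a histone pair) to 80.2% (COL4A1/COL4A2, the main collagens of basement membranes). The histone interval held the most matches, 3, made up of 2 NF-Y motifs in opposite orientation and 1 E2F motif. RARS2/ORC3 held 1 NF-Y and 1 E2F match, MRE11/ANKRD49 1 NF-Y and 1 SP1, XPC/LSM3 1 SP1 and ATP5MK/PDCD11 1 NF-Y. EIF2B1/GTF2H3, MMUT/CENPQ and COL4A1/COL4A2 held 0 exact matches, which says only that these letters are not in these intervals. A match is a description of the sequence and not a bound site.

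In all 8 pairs the strongest summit, the point of highest signal in a peak, lay between the TSSs in all 9 libraries. In XPC/LSM3 the 9 summits fell on bases 118 to 121 of the 215 printed, and in H2BC11/H2AC11 on bases 53 to 54 of 247. In RARS2/ORC3 they fell on bases 68 to 79 of 147. Summits were spread more widely in COL4A1/COL4A2, over bases 26 to 97 of 126, in MMUT/CENPQ, over bases 24 to 97 of 116, and in MRE11/ANKRD49, over bases 41 to 119 of 139.

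Counted over all pairs in the 300 bases around each TSS (250 before and 50 after), several motifs took a larger share of pairs than of other promoters. The ETS letters stood at 17.1% of the 1842 TSSs of pairs, 4.9% of one-gene promoters and 6.26% of all 19111 TSSs. E2F letters stood at 8.96% of pair TSSs and 3.65% of one-gene promoters, against 4.37% of all. NF-Y letters were at 28.5% and 19.7% (20.6% of all), YY1 at 6.35% and 2.47% (2.87% of all), NRF1 at 7.49% and 3.68% (4.2% of all), CRE at 4.51% and 2.49% (2.72% of all), and ZNF143 at 1.25% and 0.355% (0.46% of all). Shares of the SP1 letters were close, at 23.7% of pair TSSs and 24.9% of one-gene promoters (24.8% of all). AP-1 letters stood at 1.74% of pair TSSs and 3.78% of one-gene promoters (3.53% of all), and the TATA box (letters TATAAA on the strand of the gene, 20 to 40 bases before the TSS) at 1.36% and 4.19% (3.87% of all). CpG-rich sequence, with a GC content of at least 0.5 and an observed to expected CpG ratio of at least 0.6, was found at 90.7% of pair TSSs and 63% of one-gene promoters. The windows of close pairs overlap, so both TSSs of a pair can count the same match, and these shares were not tested.

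**Figure D1:**
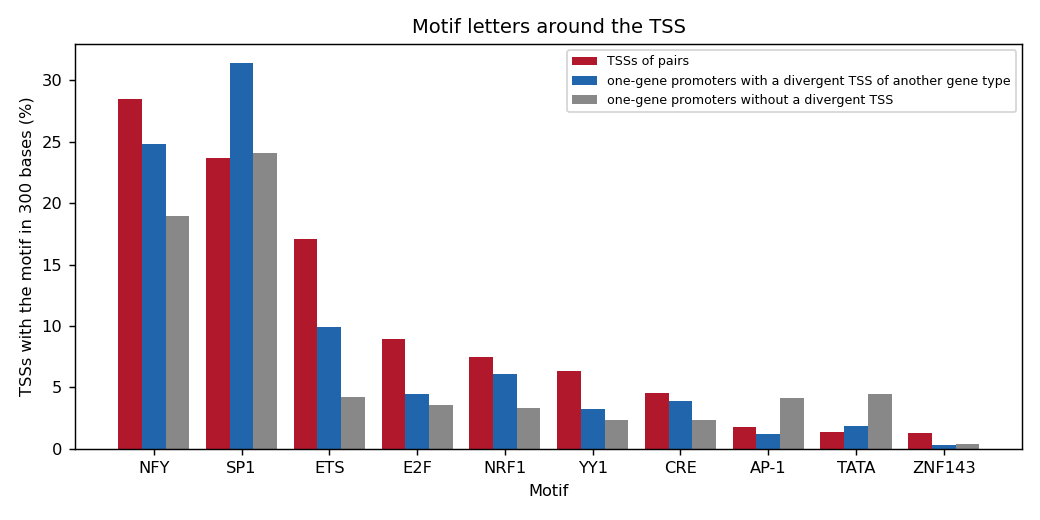
Share of TSSs (%) with exact motif letters in the 300 bases around them (TATA only 20 to 40 bases upstream), for 1842 TSSs of head-to-head pairs, 1861 one-gene promoters with an annotated divergent TSS of another gene type and 14216 one-gene promoters without one. ETS letters stand at 17.1%, 9.89% and 4.24% of the 3 sets, and SP1 letters are most frequent in the middle set, at 31.4%.

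Part of the difference in sequence was seen between kinds of one-gene promoters. Of these, 1861 had an annotated TSS of another gene type, such as a long noncoding RNA, on the other strand within 1000 bp upstream, and 90.7% of them were CpG-rich, the same share as in pairs. The ETS letters stood at 9.89% of the 1861 and at 4.24% of the 14216 without such a TSS, both below the 17.1% of pairs. The E2F letters stood at 4.46% and 3.55%, and the ZNF143 letters at 0.269% and 0.366%. The SP1 letters were at 31.4% of one-gene promoters with a divergent TSS, above pairs.

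A peak was listed at nearly every pair in every library, and at fewer one-gene promoters. The share of pairs with a peak ran from 95.2% in shEZH2 replicate 2 (95% Wilson interval 93.6 to 96.4%) to 96% in shCtrl replicate 2 and GSK126 (94.6 to 97.1%). The share of one-gene promoters with a peak ran from 56.1% in shEZH2 replicate 2, the shortest list, to 61.4% in both shCtrl libraries. The difference was 35.8 ± 1.49 percentage points (mean ± SD, n = 9 libraries) and lay between 34.5 and 39.1 in each library. An exact sign-flip permutation test over the 9 libraries (two-sided) gave p = 0.00391, the smallest value that 9 libraries allow, and 0.00391 after Benjamini-Hochberg adjustment over the 3 measures compared. All libraries hold the same promoters, so this p speaks to the agreement of the libraries and not to a resampling of genes. Among CpG-rich promoters alone the difference was 15.7 ± 1.58 points, with 97.6% of pairs that were CpG-rich at both TSSs and 81.9% of CpG-rich one-gene promoters having a peak.

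Peaks were wider at pairs. The median width of the strongest peak in a pair was 1170 and 1206 bp in the shCtrl libraries, 1076 and 957 bp in the shEZH2 libraries, 979 and 1148 bp in the shE2F1 libraries, 1145 bp in shSUZ12, 1130 bp in DMSO and 1078 bp in GSK126. At one-gene promoters the same medians ran from 769 to 1000 bp. Pairs exceeded one-gene promoters by 180 ± 20.4 bp (n = 9), and in each library by 154 to 209 bp (exact sign-flip p = 0.00391, adjusted 0.00391). Both sets were narrowest in shEZH2 replicate 2 and next narrowest in shE2F1 replicate 1, the libraries with the 2 shortest lists. With 2 libraries against 2, no exact test of a knockdown on these medians can pass 0.05, so none was made.

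Peaks at pairs were also stronger relative to their own list. The median percentile of fold enrichment was 83.1 and 85.5 in shCtrl, 83.2 and 82.9 in shEZH2, 84.5 and 86.8 in shE2F1, 88.5 in shSUZ12, 86 in DMSO and 86.5 in GSK126, while one-gene promoters with a peak stood at 69.9 to 77.2. The difference was 11.9 ± 0.769 percentile points (n = 9), with a range of 10.8 to 12.9 (exact sign-flip p = 0.00391, adjusted 0.00391). On the scale of the deposited values, the median fold enrichment of the strongest peak was 9.93 to 13.3 at pairs and 8.33 to 10.9 at one-gene promoters.

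One-gene promoters with a divergent TSS of another gene type lay between pairs and the others on all 3 measures in every library. Against these 1861 promoters, pairs were higher by 11.9 ± 1 percentage points in the share with a peak, by 75.2 ± 19 bp in median width and by 6.72 ± 0.732 points in median percentile. Each difference had the same sign in 9 of 9 libraries (exact sign-flip p = 0.00391, adjusted 0.00391 over 6 comparisons). Within CpG-rich promoters, widths differed by 152 ± 18.8 bp and percentiles by 10.4 ± 0.952 points, again with the same sign in 9 of 9 libraries and an adjusted p of 0.00391 in the exact test.

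**Figure D2:**
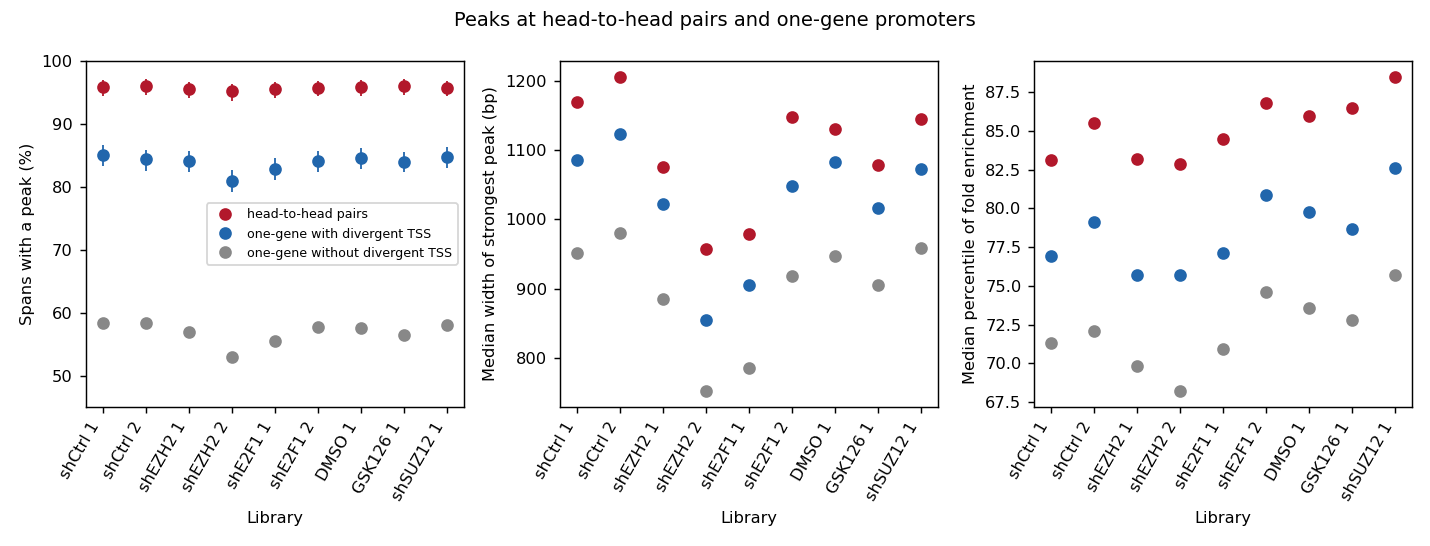
For each of the 9 libraries, the share of spans with a peak (%, with 95% Wilson intervals), the median width of the strongest peak (bp) and its median percentile of fold enrichment, at head-to-head pairs and at one-gene promoters with and without an annotated divergent TSS. Pairs stand highest in every library and panel, one-gene promoters with a divergent TSS lie between, and the y axes do not start at 0.

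A single peak usually spanned both promoters. In the mean of 9 libraries, 92.8 ± 1.43% of pairs with a peak had a strongest peak that covered both TSSs, 6.28 ± 1.23% had one over 1 TSS and 0.898 ± 0.28% had one over neither. The share with both TSSs under 1 peak was 98.8 ± 0.738% for the 184 pairs with TSSs at most 100 bp apart, 97.9 ± 1.15% for the 197 pairs 201 to 300 bp apart, and 71.3 ± 5.07% for the 168 pairs 501 to 1000 bp apart. In these widest pairs 16.4 ± 3.6% had 2 or more peaks in the span, against 3.82 ± 1.73% of the closest.

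Median width was larger in each wider class. It was 1041 ± 85.3 bp for pairs at most 100 bp apart, 1066 ± 86.9, 1083 ± 82.4 and 1146 ± 80.4 bp in the classes between, and 1210 ± 83.3 bp for pairs 501 to 1000 bp apart. The stretch beyond the TSSs was shorter in wide pairs. At the median, the peak reached 480 ± 48 bp past the minus-strand TSS into its gene and 434 ± 45.5 bp past the plus-strand TSS in the closest pairs. In the widest it reached 260 ± 46.4 and 285 ± 54.5 bp. These medians include peaks that stop short of that TSS, which count as negative. In the widest class, 26.9 ± 5.09% of pairs with a peak had a strongest peak over only 1 TSS. Across the 907 pairs with a peak in all libraries, mean width and distance had a Spearman rho of 0.209 and a Pearson r of 0.161, and mean percentile and distance a rho of -0.0436 and an r of -0.0501. These correlations are across pairs that share their libraries and are given as descriptions.

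The strongest summit lay between the TSSs in 83 ± 1.65% of pairs with a peak (n = 9 libraries). At most 100 bp apart, where little room is left, 59.3 ± 4.26% of pairs had their summit there. The share was 85.6 ± 2.61% at 101 to 200 bp, 87.3 ± 1.55% at 201 to 300 bp, 90.9 ± 1.81% at 301 to 500 bp and 90.9 ± 1.22% at 501 to 1000 bp. Relative to the TSS, with negative values upstream, the median summit lay at -97 to -91 bp for the minus-strand gene and at -102 to -95 bp for the plus-strand gene, in ranges over the libraries, and at -69 to -63 bp at one-gene promoters. From the midpoint of a pair the median summit lay at -7.5 to 1 bp, where negative is toward the minus-strand gene.

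Where within the interval the summit stood varied with the distance. The interval was divided into 3 equal parts. Of summits between the TSSs, 39 ± 3.14% lay in the middle part in pairs at most 100 bp apart, 57.2 ± 4.07% in pairs 101 to 200 bp apart and 59.8 ± 2.66% in pairs 201 to 300 bp apart. In pairs 301 to 500 bp apart the share was 29.2 ± 3.04%, and in pairs 501 to 1000 bp apart 14.4 ± 1.35%. In the last 2 classes the median distance from the summit to the nearer TSS was 84 to 97 bp and 111 to 128 bp. In pairs 101 to 300 bp apart most of these summits were thus central, and in those over 300 bp apart most were in an outer part. The outer parts are 2 of the 3, so an even spread would also place most summits there. The 39% in the middle part of the closest pairs is therefore not a lean toward the TSSs. Of the widest pairs, 48.1 to 53.7% had their summit on the plus-strand side of the midpoint. These shares are descriptions with no test.

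**Figure D3:**
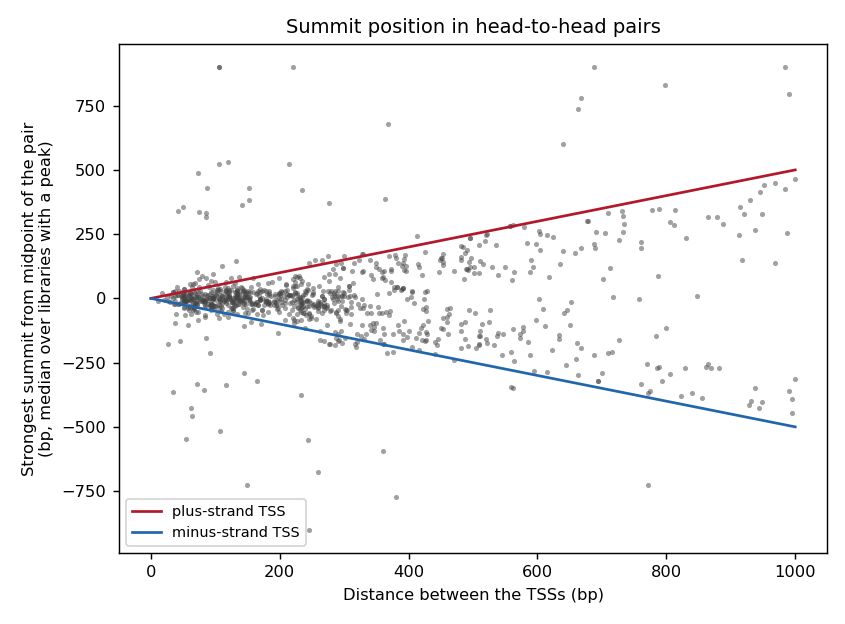
Position of the strongest summit relative to the midpoint of the pair (bp, median over the libraries with a peak) against the distance between the TSSs (bp), for 925 pairs with a peak in any library; 6 pairs beyond 900 bp are drawn at 900. Most points between 101 and 300 bp lie near the midpoint and those of wider pairs nearer the lines that mark the 2 TSSs, and 791 of the 925 lie between these lines.

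Percentiles were highest at middle distances. The median was 82.7 ± 2.74 in pairs at most 100 bp apart, 88 ± 1.81 at 101 to 200 bp, 89 ± 1.98 at 201 to 300 bp, 84.5 ± 2.27 at 301 to 500 bp and 80.2 ± 2.54 at 501 to 1000 bp (SD over 9 libraries). Among the 907 pairs with a peak in all libraries, the 305 with NF-Y letters at either TSS had a median mean percentile of 87.9, and the 602 without them 83.4. The 93 pairs with NRF1 letters stood at 88 and the other 814 at 84.4, while the 279 pairs with SP1 letters stood at 83.5 and the other 628 at 86. The 18 pairs with a TATA box had a median of 75.9, against 85.5. Pairs with ETS letters stood at 86.3 (84.5 without them), with YY1 letters at 87.1 (84.4) and the 14 with ZNF143 letters at 89.5 (84.6). Those with E2F letters stood at 84.3 (85.2 without them), with CRE letters at 84.6 (85.3) and with AP-1 letters at 79.9 (85.4). These are descriptions with no test.

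**Figure D4:**
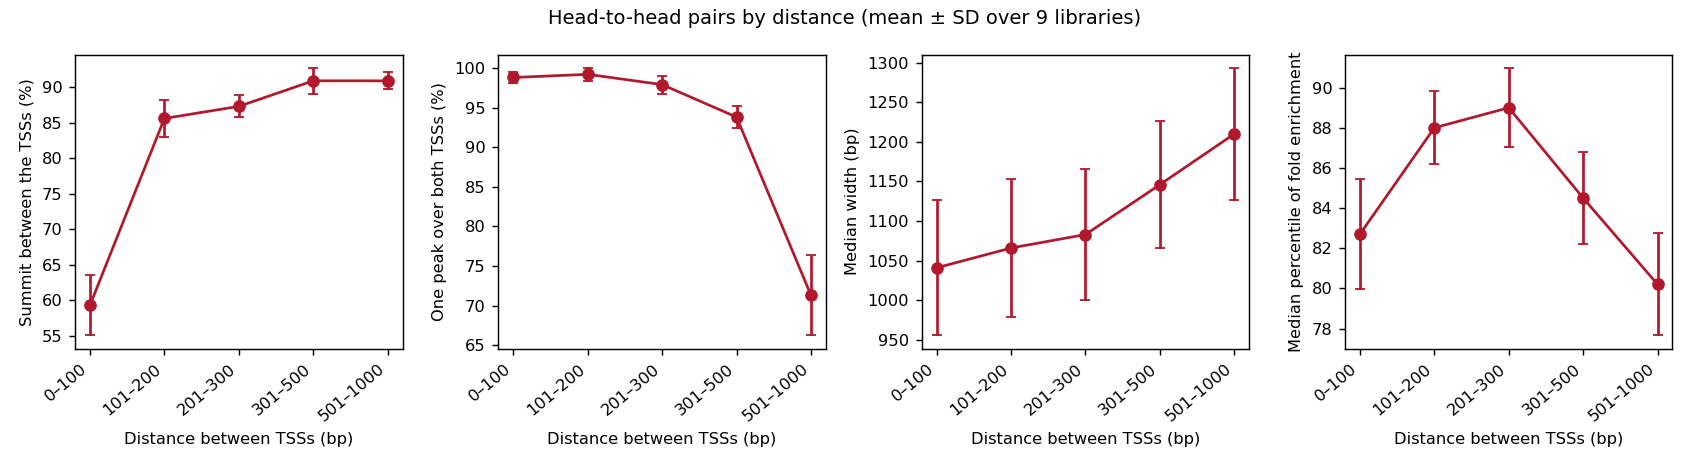
Pairs in 5 classes of distance between their TSSs (bp), with the mean over 9 libraries and bars of 1 SD: the share with the strongest summit between the TSSs (%), the share with 1 peak over both TSSs (%), the median width (bp) and the median percentile of fold enrichment. The second share drops to 71.3% in the widest class, the percentile is highest at 201 to 300 bp, and the y axes do not start at 0.

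Pairs were mostly listed in all libraries or in none. Of 957 pairs, 907 (94.8%) had a peak in all 9 libraries, 18 (1.88%) in some and 32 (3.34%) in none, whereas 54.2% of one-gene promoters had one in all 9, 11.6% in some and 34.2% in none. The 4 pairs with the highest mean percentile were YIPF5/KCTD16 (99.8), LRRIQ3/FPGT and LRRIQ3/FPGT-TNNI3K, which share 1 peak (99.7), and SRPRA/FOXRED1 (99.6). YIPF5 and SRPRA act in membrane traffic and protein targeting at the endoplasmic reticulum. For YIPF5/KCTD16 the fold enrichment was 20.4 and 21.7 in shCtrl, 18.1 and 17.7 in shEZH2, 17.6 and 19 in shE2F1, 21.3 in shSUZ12, 21.4 in DMSO and 20.7 in GSK126, with the shEZH2 and shE2F1 values below both shCtrl values before the libraries were centred on their medians. The 4 lowest among the 907 were POLR2L/TSPAN4 (2.43), HCFC1R1/THOC6 (2.89), STX10/IER2 (10.3) and SURF1/SURF2 (11.4). POLR2L is a subunit of the RNA polymerases, and its pair had a fold enrichment of 2.13 to 3.59 over the 9 libraries.

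By function, pairs were described in groups of genes whose makeup was chosen with earlier results of these data known. Mitochondrial proteins formed the 2nd largest group, with 83 pairs, and all 83 had a peak in every library. Their median mean percentile was 87.3, beside 85.2 over all pairs. The highest was ATP5MK/PDCD11, a subunit of the ATP synthase beside a ribosome biogenesis factor, with 99, followed by NDUFA2/IK (98.7, a subunit of respiratory complex I) and GDF9/UQCRQ (98.5, a subunit of complex III). RARS2/ORC3, with the mitochondrial arginyl-tRNA synthetase, had 98.4. The lowest of the group were SURF1/SURF2 (11.4, an assembly factor of cytochrome oxidase), COQ8B/ITPKC (27.8), THBS3/MTX1 (50.9) and MRPL43/TWNK (51.8, the mitochondrial DNA helicase).

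DNA replication and nucleotide synthesis was represented by 24 pairs, all with a peak in every library and with a median of 87.9. RARS2/ORC3 (a subunit of the origin recognition complex), SMYD4/RPA1 (98, a subunit of the single-strand binding protein), WDHD1/SOCS4 (97.4) and TK1/AFMID (94.8, thymidine kinase) were highest. For TK1/AFMID the fold enrichment was 14.9 and 16.8 in shCtrl, 12.4 and 12.5 in shEZH2, 12.9 and 15.5 in shE2F1, 14.5 in shSUZ12, 16.2 in DMSO and 15.1 in GSK126. The shEZH2 values lay below both shCtrl values, but the centred difference of -0.14 ± 0.13 (log2, SE) did not pass (limma adjusted p = 0.858). The lowest were RPUSD1/CHTF18 (19.3), MCM7/AP4M1 (48.9, a subunit of the replicative helicase), TMEM258/FEN1 (59.6, the flap endonuclease) and CHTF8/UTP4 (64.4). The peak of MCM7/AP4M1 was 1021 to 1708 bp wide.

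DNA repair and checkpoint genes were in 45 pairs, 44 of them with a peak in all libraries and a median of 86.1. XPC/LSM3 (99.4, the damage sensor of nucleotide excision repair), MRE11/ANKRD49 (99.3, the nuclease of the MRN complex), RAD1/BRIX1 (98.5, part of the checkpoint clamp) and TMEM167A/XRCC4 (98.2, a factor of end joining) stood at the top. The peak of XPC/LSM3 was of nearly constant width, 935 to 971 bp over the 9 libraries, and its percentile was never below 98.7. Among the lowest were RECQL4/LRRC14 (27.5), GLUD1/SHLD2 (57.5) and NTHL1/TSC2 (70.9).

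Mitosis and cell cycle genes were in 41 pairs, all with a peak in every library, with a median of 81.4. The highest were MMUT/CENPQ (99.2, with a centromere protein), CENPK/PPWD1 (98.8, likewise), RSRC2/KNTC1 (96.8, with a kinetochore protein) and AURKA/CSTF1 (96, the Aurora A kinase). AURKA/CSTF1 had a fold enrichment of 15.9 and 15.6 in shCtrl, 14 and 13 in shEZH2, 14.7 and 14.8 in shE2F1, 16.5 in shSUZ12, 15.8 in DMSO and 15.2 in GSK126. The shEZH2 and shE2F1 values were below both shCtrl values and the shSUZ12 value was above them, and after centring the shEZH2 and shE2F1 differences were -0.01 ± 0.14 and 0.10 ± 0.14 on the log2 scale (limma adjusted p = 0.992 and 0.96). TMEM129/TACC3 (33.3), LMF2/NCAPH2 (36.4), ANAPC13/CEP63 (60) and ANAPC2/SSNA1 (61.5) were lowest.

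RNA processing and translation was the largest group, with 121 pairs, 120 of them listed in every library, and its median was 83.1. EIF2B1/GTF2H3, which joins a translation initiation factor to a subunit of the general factor TFIIH, and XPC/LSM3 both stood at 99.4, EXOSC5/BCKDHA at 98.8 and RIDA/POP1 at 97.4. In EIF2B1/GTF2H3 the percentile was never below 98.9, while its width ran from 529 to 1074 bp. The lowest were POLR2L/TSPAN4, HCFC1R1/THOC6, MED22/RPL7A (31.3) and EEF1D/TIGD5 (31.4). SNCB/EIF4E1B, with a beta-synuclein gene, had no peak listed.

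The replication-dependent histones made up 14 pairs. A peak was present in all libraries at 8 pairs and in none at 5, and H2AC1/H2BC1 had one in 4 libraries. The 8 had a median of 53.8, from 29 for H2BC21/H2AC20 to 81.1 for H2BC11/H2AC11. The fold enrichment of H2BC11/H2AC11 was 10.3 and 10.9 in shCtrl, 11.5 and 10.2 in shEZH2, 8.37 and 9.76 in shE2F1, 12.6 in shSUZ12, 12.8 in DMSO and 12.5 in GSK126, and the groups of shCtrl and shEZH2 overlapped. H2AC25/H2BC26, H2AC7/H2BC7, H2BC8/H2AC8, H3C7/H2BC9 and a pair of H2BC7 with ENSG00000282988 had no peak listed. Histone genes have near-identical copies and the reads were aligned with up to 4 positions kept for each, so values at any 1 of these pairs are uncertain.

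**Figure D5:**
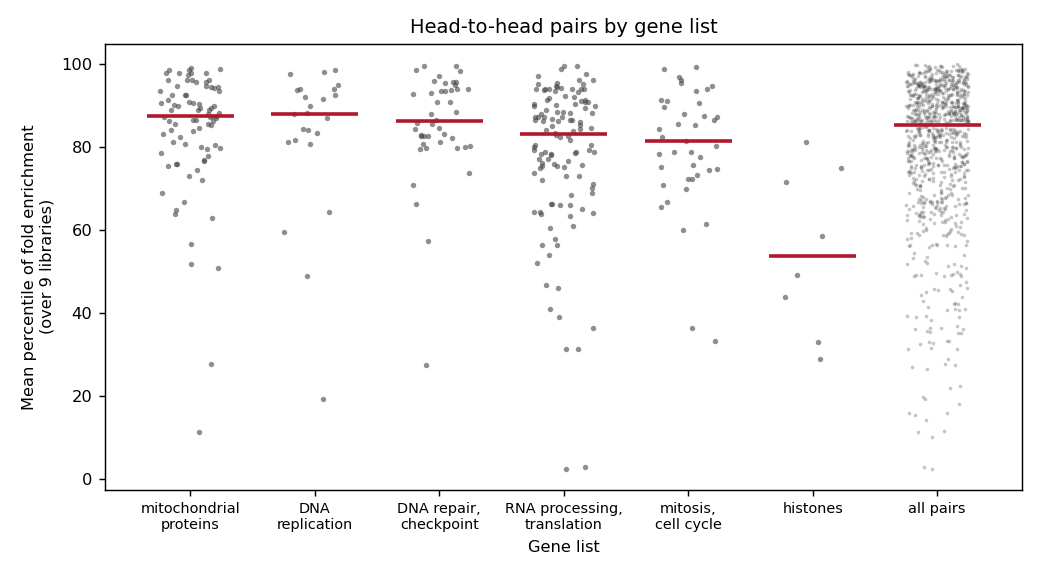
Mean percentile of fold enrichment over 9 libraries (0 to 100) of pairs with a peak in all libraries, by gene group, with 1 point per pair and a line at the median of each group; a pair can be in more than 1 group. Medians lie between 81.4 and 87.9 in 5 groups and at 53.8 in the 8 histone pairs, beside 85.2 for all 907 pairs.

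Of all pairs, 3 came from the group of basement membrane collagens and antigen processing. TAP1/PSMB9, the peptide transporter and an immunoproteasome subunit, had a mean percentile of 81.3 and a wide peak of 1445 to 1963 bp. COL4A4/COL4A3 had 60.1 and COL4A1/COL4A2 32.7. In COL4A1/COL4A2 the fold enrichment was 5.02 and 5.52 in shCtrl, 5.23 and 5.35 in shEZH2, 5.37 and 6.13 in shE2F1, 5.76 in shSUZ12, 6.27 in DMSO and 7 in GSK126, all low, while its width exceeded 1000 bp in 7 of 9 libraries, with 860 and 329 bp in the shEZH2 libraries. Of the Polycomb and E2F genes, 1 was in a pair, ZBTB8OS/RBBP4, which holds the histone-binding subunit RBBP4 and had a mean percentile of 88.1. Its fold enrichment was 11.9 and 13.7 in shCtrl, 10.7 and 11.8 in shEZH2 and 10 and 11.7 in shE2F1. It was 14.2 in shSUZ12, 13.7 in DMSO and 13.6 in GSK126. The centred differences were 0.02 ± 0.13 (log2, SE) with shEZH2 and -0.05 ± 0.13 with shE2F1 (limma adjusted p = 0.982 and 0.98).

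Both symbols began with the same letters before a number in 21 pairs, many of them neighbours of the same family, and 13 of these had a peak in all libraries, with a median percentile of 83.4. Zinc finger pairs were prominent, with ZNF891/ZNF10 and ZNF490/ZNF791 at 96.3, ZNF571/ZNF540 at 93.8, ZNF565/ZNF146 at 86.4, ZNF829/ZNF568 at 83.4 and ZNF668/ZNF646 at 65.5. HARS1/HARS2, the cytosolic and mitochondrial histidyl-tRNA synthetases, had 93.4, NCBP2/NCBP2AS2 87.9 and ZBTB25/ZBTB1 41.1. DCST2/DCST1, FOXL2/FOXL2NB and DYDC1/DYDC2 had no peak listed, ABCG5/ABCG8, the sterol transporters of liver and gut, had one in 1 library, TMEM176B/TMEM176A in 2, PRAC1/PRAC2 in 3, NLRP7/NLRP2 in 6 and FBXO2/FBXO44 in 7.

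The 32 pairs with no listed peak included, beside these, tissue-restricted genes such as OR11A1/OR2H1 (olfactory receptors), PLCZ1/CAPZA3 (sperm), DUOX2/DUOXA2 (thyroid peroxide synthesis) and CRYAB/HSPB2 (small heat shock proteins), named after their values were seen. They also included genes with broad roles, such as ACIN1/C14orf119 and AREL1/FCF1, and BOLA2/SLX1B, whose genes have near-identical copies. Of the 32, 15 were CpG-rich at both TSSs and 17 were not. A pair with no listed peak is read here only as that.

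To ask whether depletion of EZH2 or E2F1 moved accessibility at pairs, log2 fold enrichment of the strongest peak, centred on the median of each library, was fitted with limma over all 10486 promoter spans with a peak in all 6 shCtrl, shEZH2 and shE2F1 libraries. No pair passed an adjusted p of 0.05 in either comparison: 0 of 907 pairs with shEZH2, where the background over all spans was 0%, and 0 of 907 with shE2F1, where it was 0.00954% (1 of 10486 spans). At an unadjusted p under 0.05 there were 30 pairs (3.31%, of which 16 higher) with shEZH2, against 7.06% of all spans, and 37 (4.08%, of which 20 higher) with shE2F1, against 6.01%. The direction for shEZH2 was not the same in a limma fit on percentiles within the list, which were not centred. There 54 pairs passed the unadjusted p, of which 6 were higher, beside 887 of all spans, of which 83 were higher. The median shEZH2 difference in that fit was -2.66 percentile points over all spans and -1.45 at pairs. Both the scale and the centring were changed, so their parts in this cannot be told apart. For shE2F1 the percentile fit gave 37 pairs, of which 20 were higher, beside 528 of all spans, of which 249 were higher. In simulated data with 200 spans changed by 1 log2 unit, the centred log2 fit on 10486 spans called 144 of the 200, with 9 false calls. Differences of that size, and smaller ones, can thus have been missed. The simulation reassigned the spreads among spans, so it does not keep the spread of each span.

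Differences at pairs are set here beside the spread between replicates. The median absolute difference between the 2 replicates was 0.10 (shCtrl), 0.15 (shEZH2) and 0.14 (shE2F1) on the log2 scale at pairs, and 0.125, 0.162 and 0.155 over all spans. The median absolute difference of a knockdown from shCtrl was 0.10 for shEZH2 and 0.09 for shE2F1 at pairs, and 0.12 and 0.11 over all spans. That difference is between means of 2 libraries, which vary less than single libraries. The 2 measures are thus not on equal terms, and whether they differ was not tested. The middle 90% of pairs lay between -0.23 and 0.25 with shEZH2 and between -0.26 and 0.26 with shE2F1. Without centring, all spans shifted by a median of -0.185 (shEZH2) and -0.174 (shE2F1), and pairs by -0.179 and -0.173, so the changes given here are relative to that shift.

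By gene group, the calls at an adjusted p of 0.05 were 0 throughout. Beside the 3.31% (shEZH2) and 4.08% (shE2F1) of all pairs and the 7.06% and 6.01% of all spans, unadjusted p-values under 0.05 came to 3 of 41 mitosis pairs with shEZH2 and 5 of 41 with shE2F1, to 6 and 9 of 120 in RNA processing and translation, to 1 and 1 of 24 in DNA replication, to 1 and 1 of 44 in DNA repair, to 1 and 0 of 83 among mitochondrial proteins to 1 and 0 of 8 histone pairs, to 0 and 1 of 3 in the collagen and antigen processing group, to 2 and 1 of 13 pairs with a shared symbol stem and to 0 and 0 of the 1 Polycomb and E2F pair. Median log2 differences with shE2F1 were 0.09 in mitosis pairs, 0.09 in histone pairs and 0.07 in DNA replication pairs, beside 0.02 over all pairs, and in the other groups of more than 1 pair they lay between -0.00247 (DNA repair) and 0.05 (collagens and antigen processing). With shEZH2 the 8 histone pairs had a median of 0.24, beside 0.03 over all pairs, and the caution on near-identical copies holds here too. The 108 pairs with E2F letters had a median difference of 0.04 with shE2F1 and the 799 without them 0.01, and with shEZH2 both stood at 0.03.

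Among the pairs named above, ANAPC2/SSNA1 had the lowest unadjusted p, for a shE2F1 difference of -0.65 ± 0.13 (log2, SE, limma adjusted p = 0.573). ANAPC2 is the cullin subunit of the anaphase-promoting complex. Its percentile, which was not centred, was 72.5 and 79.6 in shCtrl, 24.7 and 51.4 in shE2F1, and 55.6 and 50.2 in shEZH2. TMEM129/TACC3, a spindle gene, had a percentile of 41.7 and 43.4 in shCtrl and 4.35 and 23 in shE2F1 (difference -0.44 ± 0.13, limma adjusted p = 0.72). HSPA1L/HSPA1A, which encodes the inducible heat shock protein HSP70, had a fold enrichment of 9.82 and 11.1 in shCtrl, 6.34 and 6.37 in shEZH2, 7.77 and 8.11 in shE2F1, 10.8 in shSUZ12, 11.2 in DMSO and 11 in GSK126. Its shEZH2 difference was -0.50 ± 0.13 (limma adjusted p = 0.439), and the gene has a near-identical copy, HSPA1B, with which reads can be shared. None of these passed the threshold. These pairs were picked after their values were seen, and each difference given for them is negative. Of pairs with a limma unadjusted p under 0.05 on the log2 scale, 20 of 37 (shE2F1) and 16 of 30 (shEZH2) were higher. The median shE2F1 difference of the mitosis pairs was 0.09.

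Few pairs lost or gained their peaks. Of 916 pairs with a peak in both shCtrl libraries, 3 (0.328%) had none in either shEZH2 library, against 1.72% of all such spans, and 0 had none in either shE2F1 library, against 1.06%. Of 36 pairs with no peak in either shCtrl library, 0 had one in both shEZH2 libraries (0.225% of all such spans) and 0 in both shE2F1 libraries (0.451%). With 2 libraries against 2 these counts have no test.

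The 3 pairs without a peak in shEZH2 varied in the other libraries, with percentiles of 14.3 to 78.8 for TSPAN19/LRRIQ1, 1.02 to 17.4 for CCDC78/HAGHL and 15.2 to 60.4 for NLRP7/NLRP2. TSPAN19/LRRIQ1 had a fold enrichment of 5.02 and 9.42 in shCtrl, no peak in shE2F1 replicate 1, 8.5 in shE2F1 replicate 2, 10.9 in shSUZ12, 7.89 in DMSO and 4.87 in GSK126. CCDC78/HAGHL had 2.76 and 2.73 in shCtrl, 3.4 and 2.82 in shE2F1, 3.52 in shSUZ12, 4.76 in DMSO and 5.05 in GSK126. NLRP7/NLRP2, which encodes 2 proteins of the NOD-like receptor family, had 5.02 and 7.8 in shCtrl, 5.59 and no peak in shE2F1, 4.35 in shSUZ12, 8.61 in DMSO and 5.16 in GSK126.

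In the single shSUZ12 library, 3 of the 916 pairs with a peak in both shCtrl libraries had none (0.328%, against 1.31% of all such spans), and 2 of the 36 without one had a peak (5.56%, against 2.48%). The 3 were MMRN2/SNCG (6.92 and 6.85 in shCtrl), FOXA1/TTC6 (3.56 and 4.25) and CCR10/CNTNAP1 (3.36 and 3.26), and the 2 were ENSG00000285868/NIPAL4 (3.8) and KCTD19/LRRC36 (3.86). FOXA1 is a pioneer factor of luminal breast cells, and its pair was also without a peak in shE2F1 replicate 1. With GSK126, 1 of 918 pairs with a peak in DMSO had none (0.109%, against 3.02% of all such spans), which was CCR10/CNTNAP1 with 3.62 in DMSO, and 2 of 39 had a peak that DMSO lacked (5.13%, against 2.22%), ABCG5/ABCG8 (5.03) and PRAC1/PRAC2 (4.69). These are comparisons of single libraries with no replicate check.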

How the data were processed

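ATAC-seq peak lists of 9 libraries were used. Per the study's methods and processing notes, the authors aligned reads with Bowtie2 (up to 4 positions kept) to GRCh38/hg38 and shifted them for the transposase offset; the peak caller was not given in the sources used here. The deposited narrowPeak lists hold, per peak, a score, a signal value read here as fold enrichment (ratio), −log10 p and −log10 q values, and a summit offset (other). Peaks were called per library.

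TSSs were canonical GENCODE v44 protein-coding transcripts; 0 peaks lay past a chromosome end of GRCh38. A peak counted with an overlap of 1 bp, and the strongest had the highest fold enrichment. Within-library differences were tested by exact two-sided sign-flip permutation with Benjamini-Hochberg adjustment, and knockdowns with limma 3.58.1 in R 4.3.3 (2 against 2 libraries, all spans, no block). The fit was tested on simulated data. Members and gene groups were chosen with earlier results of these data known. Named pairs were the 4 highest and 4 lowest by mean percentile of each group and of all pairs, pairs without a peak in every library (up to 6 a group), pairs that lost or gained peaks and pairs with a shared symbol stem; other names are marked, and some named pairs are not reported here. Intervals cover counting error only. Alternatives changed spans, peak filters, promoter sets, scaling and libraries.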

Additional observations from a re-analysis of the deposited data

How the results depend on the processing

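The 3 differences between pairs and one-gene promoters kept their sign and an exact p under 0.05 in all 15, 17 and 16 alternatives tried for presence, width and percentile. Presence ranged from 15.7 points (CpG-rich promoters only) to 39 (summit inside the span), width from 145 bp (pairs 300 bp apart or less) to 240 bp (bases of the span covered), and percentile from 9.94 (ranked by −log10 p) to 13.2. With the plus-strand TSS alone, a span as long as that of a one-gene promoter, they were 35.4 points, 182 bp and 11.9. Leaving out pairs that share a gene or hold a readthrough, chosen after seeing the data, gave 36, 173 and 12. Calls at pairs stayed at 0 in all 12 alternatives per knockdown, one of them, no centring, chosen after seeing the data. Replicate numbers did not pair the samples (correlations of 0.0618, 0.0563 and 0.00986). The fit with the replicate number as a block also called 0 pairs. At an unadjusted p under 0.05 it gave 24 (shEZH2) and 38 (shE2F1) of 907 pairs, beside 787 and 683 of all 10486 spans. Without centring on the log2 scale the pairs at an unadjusted p under 0.05 were 100 and 85, all lower. Over all 10486 spans they were 1571 with shEZH2, of which 18 were higher, and 1260 with shE2F1, of which 36 were higher. In that fit 16 (shEZH2) and 1 (shE2F1) of all spans passed an adjusted p of 0.05. The cause was not tested. Of the counts of lost peaks, the 3 pairs of shEZH2 became 1 with the same number of peaks per list, and the 0 of shE2F1 became 2 with the summit inside the span, as did the 0 gained with shE2F1. Leaving out 1 library gave 3 to 7 lost and 0 to 1 gained pairs for shEZH2 (7 without shEZH2 replicate 1, 1 gained without shEZH2 replicate 2), and 0 to 4 lost and 0 to 2 gained for shE2F1 (4 lost without shE2F1 replicate 2, 2 without shE2F1 replicate 1 and 1 without shCtrl replicate 2, and 2 gained without shCtrl replicate 2), since fewer libraries are then asked to agree. The share of summits between the TSSs was 82.5% with the widest peak and 83.1% with −log10 q of at least 5. Depth is unknown, so a missing peak cannot be told from a shallow library.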
